A study of Homo sapiens with 15 samples.

Results

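Hydroxytyrosol (HTyr), the main phenol of olive products, was given in pure form to HCT116 cells, an established human colorectal cancer line, and their RNA was compared with that of untreated HCT116 cells. The comparison took 6 of the 15 libraries of the series, 3 of cells that received 0.0154 mg/mL HTyr for 72 h (HTyr 1 to 3) and 3 of control cells (CTR 1 to 3), all of the wild-type line. The other 9 libraries are HCT116 cells that received oil production waste product (OPWP) extracts of 3 Italian regions (Apulia, AE; Tuscany, TE; Sicily, SE) at the same dose and time, and they are used here to show where HTyr differed from the extracts. The extracts were dissolved in sterile water, and no vehicle is named for the control cells. The members of the comparison are genes, 14899 of the 60664 in the deposited table, taken because they reached at least 1 TPM (an abundance corrected for transcript length and relative to the whole library) in at least 3 of the 15 libraries.

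HTyr is a catechol, a small phenol with neighbouring hydroxyl groups, that scavenges radicals and is oxidised to reactive quinones. Cells meet such compounds with NFE2L2, a transcription factor that is held in the cytoplasm by KEAP1 until KEAP1 is modified, and with the aryl hydrocarbon receptor (AHR), which binds planar aromatic ligands and turns on xenobiotic-metabolising enzymes. The study asked what HTyr and the extracts do to the transcriptome of colorectal cancer cells, with attention to mitochondria and to the nuclear receptor PPARG.

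HTyr raised the genes of DNA replication and mitosis and the tubulins together, and lowered genes of the actin cytoskeleton, of the YAP and TGF-beta response, of keratins and cell junctions, and of the endoplasmic reticulum (ER) stress response. CYP1A1, the classical target of AHR, was 11.9-fold higher on the TPM scale, a ratio over controls that all read under 1 TPM, and its fitted log2 change was 2.81. The antioxidant enzyme NQO1 was 2.29-fold higher on the TPM scale. Called in what follows means a Benjamini-Hochberg adjusted p under 0.05 in limma, fitted to log2(TPM + 0.5) over all genes, together with a change of more than 1.5-fold in either direction, and only such genes are said to have risen or fallen. By that rule 1162 genes rose, 7.8% of those tested, and 1259 fell, 8.45%, which makes 2421 or 16.2% in all. The change exceeded 1 on the log2 scale in 300 of the genes that rose, and it was under -1 in 288 of those that fell. Fold changes on the log2(TPM + 0.5) scale understate the change of genes near 0.5 TPM.

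The TPM of each library sum to the same total, so the depth of a single library cannot be read from them, and no error from counting could be attached. The labels call the libraries biological replicates without saying whether cultures were grown or treated on separate days, and the p-values rest on the spread of these libraries alone, which may be technical. The control and HTyr libraries did not overlap in 7215 genes, 48.4% of those tested, and in 2348 of the 2421 called genes. The median fold change of all genes was -0.04 on the log2 scale. EPCAM, CDH1, KRT8, KRT18, KRT19 and CDX2, which mark colorectal epithelium, reached 1 TPM in all 6 libraries, whereas the other 6 epithelial markers, VIL1, CDX1, CDH17, GPA33, CEACAM5 and LGR5, stayed under 1 TPM in all of them, CEACAM5 and LGR5 at 0. The 12 epithelial markers summed to 4197 to 4243 TPM in controls and 2831 to 3144 TPM with HTyr, most of it from KRT8, KRT18 and KRT19. Of the fibroblast, endothelial, immune and neural markers, 6 of 7, 5 of 5, 7 of 8 and 3 of 4 stayed under 1 TPM in all 6 libraries. The summed fibroblast markers were 6.34 to 8.01 TPM in controls and 5.06 to 9.02 TPM with HTyr, the endothelial ones 0.32 to 0.37 and 0.27 to 0.40 TPM, and the neural ones 8.48 to 9.90 and 5.33 to 6.70 TPM. The immune sum was 16.9 to 17.6 TPM in controls and 5.55 to 7.18 TPM with HTyr, and nearly all of it was CD68, a lysosomal protein of many cell types, while the defining leukocyte marker PTPRC was at 0 in all 3 controls and at most 0.04 TPM with HTyr. In RNA from whole cultures, fewer cells that express a gene and less of its RNA per cell cannot be told apart.

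Genes of DNA replication moved upward as a group. Of 73 measured genes of the E2F and replication list, 57 rose and none fell, and the median of the list was 0.88 on the log2 scale. The list holds the enzymes that make deoxynucleotides, the MCM helicase that opens origins, and the clamp and polymerases of the fork. RRM2, the regulated subunit of ribonucleotide reductase, read 34.2, 39.0 and 40.2 TPM in the 3 control libraries and 120.0, 132 and 137 TPM in the 3 HTyr libraries, so that the lowest HTyr value was well above the highest control. Its change was 1.77 ± 0.07 (SE, adjusted p = 2.87e-09, 3 libraries per group). PCLAF, a small protein that binds the sliding clamp, went from 8.93 to 15.7 TPM in controls up to 60.5 to 67.0 TPM with HTyr and had the largest change of the list, 2.36 ± 0.24. ASF1B, a histone chaperone that works behind the fork, rose by 1.81 ± 0.08. FEN1, the nuclease that trims Okazaki fragments, rose by 1.48 ± 0.09.

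PCNA, the sliding clamp itself, read 78.7, 71.8 and 80.3 TPM in controls and 163, 178 and 186 TPM with HTyr, a change of 1.18 ± 0.08 (adjusted p = 1.54e-07). All 3 HTyr values lay above all 3 controls. Its promoter is shown because it holds a binding motif of the E2F factors, which drive replication genes at the start of S phase. The window is chr20:5126628-5126727 of GRCh38.p14, minus strand, from RefSeq, written 5′ to 3′ along the gene and ending just before its start site, with the motif in capitals (TTTNNCGC, read on the other strand here).
PCNA: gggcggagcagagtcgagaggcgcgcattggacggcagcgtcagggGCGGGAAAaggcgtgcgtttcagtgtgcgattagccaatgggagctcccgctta
The motif, searched on both strands from 250 bases before to 50 bases after the start, was present in 29 of the 61 promoters found for the list (47.5%), against 6.9% of all 27305 promoters in the reference and 10.7% of those of tested genes. Among the called members with a promoter sequence, 25 of 47 held it. RRM2 held no match in its window.

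In the list of G1 cyclins, kinases and inhibitors, 6 of 24 members rose, none fell, and the median was 0.11. CCNE1 and CCNE2, the E-type cyclins, rose by 0.88 ± 0.10 and 1.12 ± 0.16, CDK2, their kinase, by 0.77 ± 0.09, and TFDP1, the partner of E2F factors, by 0.77 ± 0.07. SKP2, which marks the inhibitor p27 for destruction, and CDKN2C, an inhibitor of CDK4 and CDK6, rose as well, by 0.70 ± 0.11 and 0.89 ± 0.17. The G1 inhibitor CDKN1A read 262, 241 and 273 TPM in controls and 220, 235 and 208 TPM with HTyr and was not called (-0.23 ± 0.07, adjusted p = 0.0241), its change being under the fold threshold.

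Genes of G2 and mitosis rose in 66 of 83 measured members with none falling, at a median of 0.93. CCNB1, cyclin B1, the partner of CDK1 at mitotic entry, read 49.1, 53.6 and 53.4 TPM in controls and 166, 165 and 169 TPM with HTyr. The spread among HTyr libraries was far smaller than the 1.67 ± 0.06 by which the groups differed (adjusted p = 1.93e-09). HMGB2, a chromatin protein of cycling cells, rose by 1.35 ± 0.06, and KIF22, a kinesin that moves chromosomes, by 1.07 ± 0.05. AURKB, the kinase of the chromosomal passenger complex, read 33.6, 43.7 and 35.1 TPM in controls and 83.2, 84.1 and 87.5 TPM with HTyr, a change of 1.18 ± 0.09. STMN1, stathmin, a protein that binds tubulin dimers, was lowest in CTR 1 (189 TPM) and highest in HTyr 3 (394 TPM) and rose by 0.82 ± 0.08. Neither gene showed an overlap between groups.

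PLK1, a kinase needed for spindle assembly, read 18.6, 23.7 and 21.3 TPM in controls and 42.0, 51.7 and 47.9 TPM with HTyr, a change of 1.14 ± 0.10 (adjusted p = 2.6e-06). Its promoter carries the cell cycle homology region (CHR, TTTGAA, in capitals), an element that represses mitotic genes outside G2 and is bound by the DREAM complex. The window is chr16:23678789-23678888, plus strand, GRCh38.p14.
PLK1: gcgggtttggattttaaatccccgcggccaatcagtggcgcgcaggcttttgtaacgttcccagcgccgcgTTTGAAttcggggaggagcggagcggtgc
Of 68 promoters of the list, 46 held the CHR letters (67.6%), compared with 15.4% of all promoters and 9.28% of the promoters of tested genes. Among the called members with a promoter sequence, 34 of 52 held them. CCNB1 had no match.

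Tubulins, which form the spindle and the microtubule network, rose in 8 of 12 measured genes, with a median of 0.85. TUBA1B, the most abundant alpha-tubulin of the list, read 444, 473 and 460 TPM in controls and 1007, 1065 and 1101 TPM with HTyr, a change of 1.20 ± 0.05 (adjusted p = 2.65e-09). TUBA1A rose from 17.8 to 18.4 TPM to 46.3 to 54.4 TPM (1.43 ± 0.09), TUBB by 0.92 ± 0.05 and TUBB4B by 1.09 ± 0.09. The tubulins TUBD1 and TUBE1, which belong to centrioles, were at -0.24 ± 0.18 and -0.21 ± 0.10 and were not called. Tubulin genes share long stretches of sequence, and how RSEM split reads among them was not tested.

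**Figure D1:**
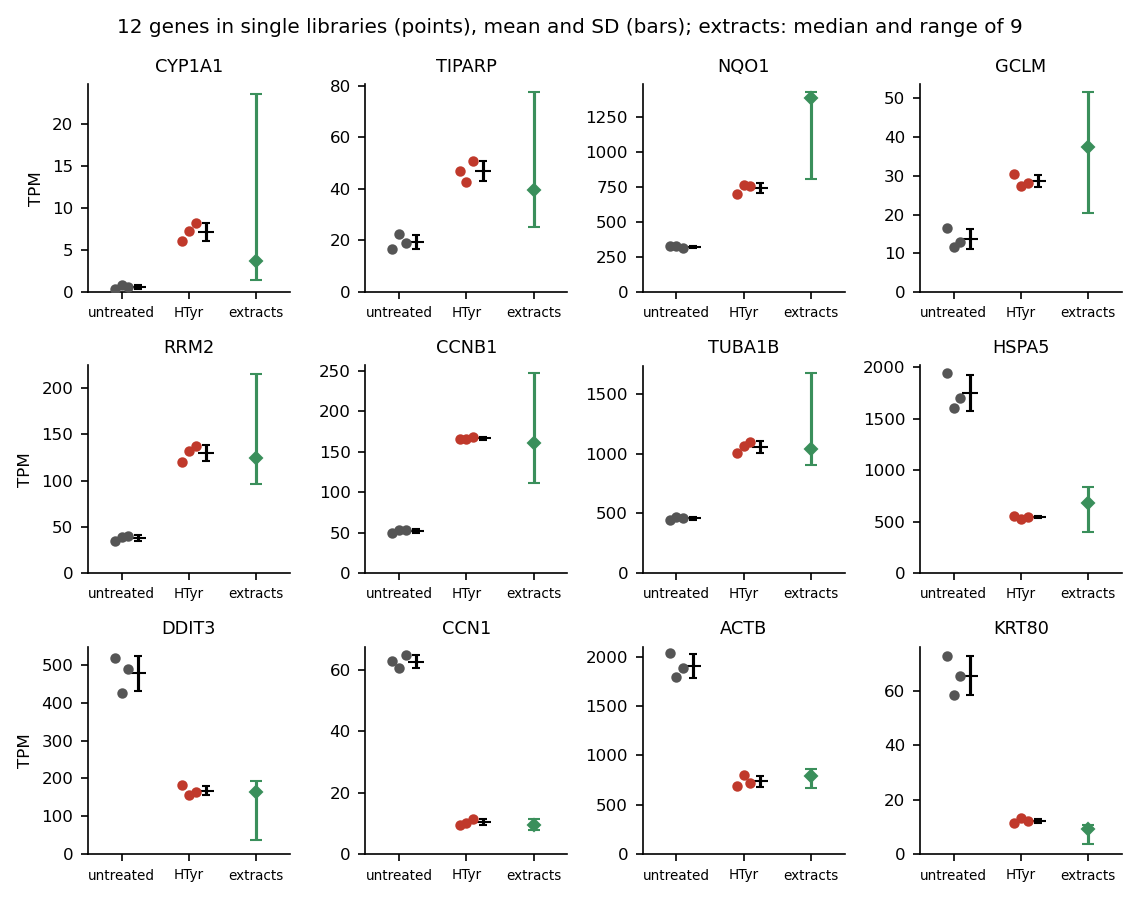
TPM of 12 genes in each control and HTyr library (points), with the mean and SD of each group (black) and, in green, the median and range of the 9 extract libraries. The 12 genes were picked among called genes, of which 2348 of 2421 have groups without overlap. In all 12 panels the 3 HTyr points lie wholly on one side of the 3 controls, and for NQO1 and KRT80 they also lie outside the range of the extracts.

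Actin genes fell while tubulins rose. Of 41 measured genes of the actin cytoskeleton and of serum response factor (SRF), 17 fell and none rose, with a median of -0.38. ACTG1, gamma-actin, was among the most abundant transcripts of the cells and read 6121, 4513 and 5307 TPM in controls and 1690, 2002 and 1807 TPM with HTyr. The control values spread widely, with CTR 1 highest and CTR 2 lowest, yet the groups did not overlap and differed by -1.53 ± 0.11 (adjusted p = 4.57e-07). ACTB, beta-actin, often used as a reference gene, read 2035, 1798 and 1888 TPM in controls and 687, 800.0 and 719 TPM with HTyr (-1.38 ± 0.07). Both genes have many processed pseudogenes that could share reads.

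VCL, vinculin, which links actin to adhesions, fell from 94.0 to 106 TPM to 41.9 to 44.9 TPM (-1.21 ± 0.06), and FLNA, the actin crosslinker filamin A, fell by 1.27 ± 0.11 on the log2 scale. MYH9, the heavy chain of non-muscle myosin, was at -0.99 ± 0.08, and TAGLN, a calponin-like protein of contractile cells, at -1.33 ± 0.18, both called. SRF, the factor that these genes share as a regulator, read 30.1, 28.5 and 28.0 TPM in controls and 14.9, 14.6 and 14.5 TPM with HTyr. The HTyr values were nearly identical, and SRF fell by 0.96 ± 0.06 (adjusted p = 1.02e-07). The promoters of ACTG1 and SRF are shown with the CArG box, the SRF binding motif, in capitals, a motif that was chosen after the values had been seen. The windows are chr17:81512839-81512938 on the minus strand and chr6:43171169-43171268 on the plus strand, GRCh38.p14.
ACTG1: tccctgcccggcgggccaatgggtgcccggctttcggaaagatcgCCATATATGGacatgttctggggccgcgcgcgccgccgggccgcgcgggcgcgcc
SRF: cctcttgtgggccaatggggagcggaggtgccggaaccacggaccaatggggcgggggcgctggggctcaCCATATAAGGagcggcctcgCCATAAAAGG
The box was found in 6 of the 37 promoters of the list (16.2%), those of ACTG1, TPM4, FLNA, CNN2, FHL2 and SRF, and in 1.29% of all promoters and 0.967% of those of tested genes. All 6 belong to genes that fell, although TPM4 was not called with the trend in GC content and transcript length removed (-0.57).

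Targets of YAP and of TGF-beta fell in 17 of 34 measured genes, none rose, and the median was -0.56. YAP is a coactivator that enters the nucleus when cells are spread and their actin is under tension, and TGF-beta signals through SMAD factors. CCN1, a secreted matrix protein and YAP target, read 62.8, 60.7 and 64.8 TPM in controls and 9.54, 10.2 and 11.5 TPM with HTyr. It fell by 2.54 ± 0.10 (adjusted p = 2.65e-09). CCN2, its relative, had a mean of 13.9 ± 2.16 TPM (SD, n = 3) in controls and 3.95 ± 1.11 TPM with HTyr (-1.72 ± 0.17). AMOTL2, an angiomotin that is a target and an inhibitor of YAP, fell by 1.75 ± 0.09. ANKRD1 went from 1.51 to 1.90 TPM to at most 0.14 TPM, which is near the lower end of what the table resolves. The inhibitory SMADs, SMAD6 and SMAD7, which TGF-beta signalling induces as brakes, were both called lower, at -1.06 ± 0.22 and -0.93 ± 0.23. With genes limited to a mean of at least 5 TPM, 11 members of this list were left as fallen and its median was -0.43.

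Keratins and junction genes fell in 14 of 38 members with none rising, at a median of -0.43. KRT80, an epithelial keratin, read 72.8, 58.5 and 65.5 TPM in controls and 11.5, 13.03 and 12.2 TPM with HTyr, a change of -2.37 ± 0.09 (adjusted p = 2.65e-09). KRT7 fell by 1.03 ± 0.12 and KRT15 by 1.47 ± 0.13. KRT18, a main keratin of simple epithelium, went from 1280, 1134 and 1198 TPM to 741, 832 and 775 TPM (-0.62 ± 0.06), and its call was lost without CTR 1 (-0.58) and without HTyr 1 (-0.58). Both values without a library stayed close to the fold threshold. Among junction and adhesion genes, CLDN4 and OCLN, of tight junctions, fell by 1.00 ± 0.12 and 0.95 ± 0.11, and LAMB3 and LAMA5, chains of laminins, by 1.10 ± 0.10 and 0.91 ± 0.10.

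Mesenchymal and invasion genes were divided, with 6 of 27 falling and 4 rising (median -0.26). THBS1, thrombospondin, went from 14.4 to 17.7 TPM to 3.74 to 3.79 TPM (-1.92 ± 0.10), and the receptor tyrosine kinase AXL fell by 0.98 ± 0.06. ZEB1, a repressor of epithelial genes, was low in both groups and fell from 1.21 to 1.74 TPM to 0.30 to 0.92 TPM (-0.83 ± 0.25, adjusted p = 0.0168). In the opposite direction, CEMIP, which degrades hyaluronan, read 1.80, 1.80 and 1.95 TPM in controls and 5.34, 7.45 and 6.53 TPM with HTyr (1.55 ± 0.14). S100A4, a calcium-binding protein linked to motility, rose by 0.62 ± 0.15. The call of ZEB1 was lost without CTR 3 (-0.75, adjusted p = 0.06), without HTyr 2 (-0.60, adjusted p = 0.0775) and with the 2 groups fitted alone (adjusted p = 0.053), and that of S100A4 without CTR 2 (0.53) or HTyr 3 (0.57), with quantile normalization (0.46) and with the trend in GC content and transcript length removed (0.52).

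**Figure D2:**
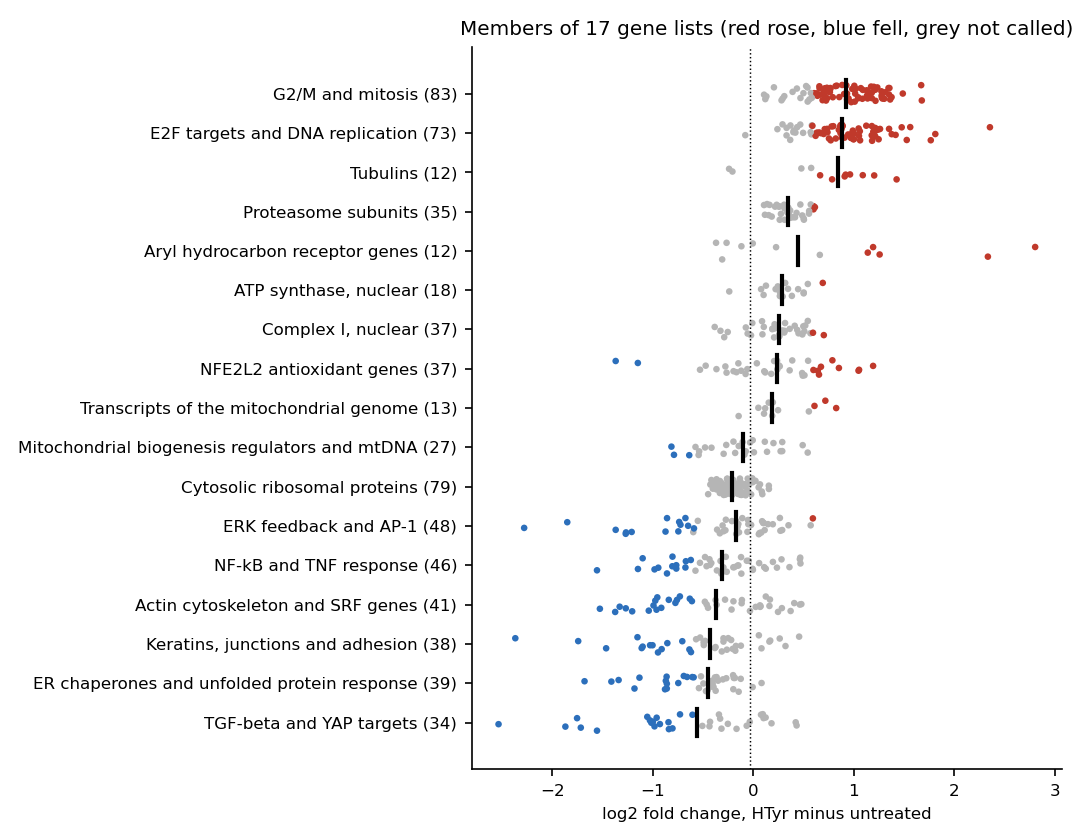
Log2 fold change of HTyr over untreated cells for every measured member of 17 gene lists (points, with the number of members in brackets), coloured red where the gene rose, blue where it fell and grey otherwise. Black bars mark the median of each list and the dotted line the median of all genes (-0.04), from 0.93 for mitosis at the top to -0.56 for TGF-beta and YAP targets at the bottom.

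Genes of the ER fell. The ER folds secreted proteins with chaperones, and when unfolded proteins build up the sensors ERN1, EIF2AK3 and ATF6 raise those chaperones. Of 39 members of the list, 15 fell and none rose, with a median of -0.46. HSPA5 (BiP), the main ER chaperone, read 1940, 1600 and 1699 TPM in controls and 555, 528 and 546 TPM with HTyr. No HTyr value came near the lowest control, and the change was -1.68 ± 0.06 (adjusted p = 2.65e-09). DNAJB9, a cochaperone, fell by 1.41 ± 0.09, HERPUD1, of ER-associated degradation, by 1.34 ± 0.07, and SEL1L, of the same pathway, by 1.13 ± 0.11. HSP90B1, the ER form of the HSP90 chaperone, went from 756 to 915 TPM to 475 to 533 TPM (-0.69 ± 0.07). The sensors fell too, EIF2AK3 by 0.86 ± 0.15, ERN1 by 0.66 ± 0.11 and ATF6 by 0.61 ± 0.07. The call of ATF6 was lost without CTR 2 (-0.57) or HTyr 2 (-0.56), with median-ratio scaling or quantile normalization (both -0.58), without short non-coding RNAs (-0.58) and with the trend in GC content and transcript length removed (-0.41), and the last setting also ended the calls of ERN1 (-0.48) and HSP90B1 (-0.52). XBP1, which ERN1 activates by splicing, was at -0.46 ± 0.10 and was not called. The promoter of HSPA5 is shown for its ER stress element (ERSE, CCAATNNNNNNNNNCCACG, in capitals), the binding motif of ATF6 with NF-Y, at chr9:125241351-125241450, minus strand, GRCh38.p14.
HSPA5: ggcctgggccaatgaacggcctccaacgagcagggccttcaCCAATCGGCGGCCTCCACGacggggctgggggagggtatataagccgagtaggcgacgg
The element was present in 7 of the 37 promoters of the list (18.9%) and in 0.0806% of all promoters. Of the 15 members that fell, 2 held it, HSPA5 and HSP90B1.

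In the ATF4 list, of the integrated stress response and amino acid supply, 7 of 39 genes fell and 3 rose, at a median of -0.11. DDIT3 (CHOP), which promotes death under lasting ER stress, read 518, 427 and 490 TPM in controls and 182, 157 and 164 TPM with HTyr, a change of -1.51 ± 0.11 (adjusted p = 3.82e-07). ATF3 went from 110, 126 and 124 TPM to 37.8, 33.2 and 28.1 TPM (-1.85 ± 0.11), and GDF15, a secreted stress cytokine, from 645, 561 and 642 TPM to 302, 376 and 326 TPM (-0.88 ± 0.08). Neither gene's groups overlapped. AARS1, an aminoacyl-tRNA synthetase, fell by 0.59, a call that was lost in 6 alternatives besides limma's treat, which tests against the fold threshold itself, among them without CTR 2 or HTyr 2. PHGDH and PSPH, of serine synthesis, were higher by 0.66 ± 0.08 (not called with quantile normalization, 0.52) and 0.91 ± 0.12, and PCK2, the mitochondrial PEP carboxykinase, by 0.82 ± 0.07. ATF4 itself was not called, at 589 to 616 TPM in controls and 608 to 650.2 TPM with HTyr (0.05 ± 0.04, adjusted p = 0.378).

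Among AHR genes 5 of 12 rose and none fell, with a median of 0.44. NQO1 is among these 5 and is counted in the NFE2L2 list as well. CYP1A1, a monooxygenase of aromatic compounds, read 0.39, 0.81 and 0.60 TPM in controls and 6.06, 7.18 and 8.20 TPM with HTyr. It was thus barely detected without HTyr and modest with it, and it rose by 2.81 ± 0.17 on the log2 scale (adjusted p = 1.02e-07). Its promoter is shown for the core of the xenobiotic response element (XRE, GCGTG, in capitals), at chr15:74725534-74725633, minus strand, GRCh38.p14.
CYP1A1: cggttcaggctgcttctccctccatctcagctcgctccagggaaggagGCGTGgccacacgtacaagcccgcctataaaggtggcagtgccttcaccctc
These letters are common. They stand in 6 of the 9 promoters found for the list (66.7%), in 36.3% of all promoters and in 51.3% of those of tested genes.

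AHRR, the repressor that AHR induces against itself, read 1.37, 1.94 and 0.07 TPM in controls and 6.39, 6.27 and 6.66 TPM with HTyr (2.33 ± 0.37, adjusted p = 0.000231), with CTR 3 far below the other controls. TIPARP, which modifies AHR and limits it, went from 16.8, 22.3 and 19.2 TPM to 47.1, 42.9 and 51.0 TPM (1.26 ± 0.13). CYP1B1 rose from 0.29 to 0.33 TPM to 1.23 to 1.42 TPM (1.14 ± 0.16). The receptor AHR was not called (-0.01 ± 0.12), at 15.1 to 16.4 TPM in controls and 13.4 to 18.6 TPM with HTyr, and its groups overlapped.

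The NFE2L2 list was mixed, with 9 of 37 members rising, 2 falling and a median of 0.24. NQO1, which reduces quinones, read 327, 328 and 316 TPM in controls and 700, 766 and 757 TPM with HTyr, a change of 1.19 ± 0.05 (adjusted p = 2.65e-09). GCLM, the modifier subunit of the enzyme that starts glutathione synthesis, went from 16.6, 11.7 and 12.8 TPM to 30.5, 27.4 and 28.1 TPM (1.05 ± 0.12). TXN, thioredoxin, rose by 0.64 ± 0.10, a call that was lost without CTR 2 (0.57), with quantile normalization (0.53) and with the trend in GC content and transcript length removed (0.58). HMOX1, heme oxygenase, read 16.8, 15.3 and 14.2 TPM in controls and 23.3, 22.9 and 27.5 TPM with HTyr (0.65 ± 0.09), and fell under the fold threshold without HTyr 3 (0.57) and with the same trend removed (0.56). Against the direction of the list, OSGIN1, a growth inhibitor induced by oxidative stress, went from 28.1, 17.6 and 22.8 TPM to 9.54, 10.0 and 9.93 TPM (-1.15 ± 0.13), and MAFF, a small MAF partner of NFE2L2, fell by 1.37 ± 0.09. SRXN1, sulfiredoxin, and TXNRD1, thioredoxin reductase, both textbook NFE2L2 targets, were at -0.47 ± 0.10 and -0.28 ± 0.06. NFE2L2 itself was at -0.27 ± 0.07 and its inhibitor KEAP1 at 0.24 ± 0.11, and none of these 4 genes was called. After removal of the GC and length trend 4 members of the list remained as risen. The core of the antioxidant response element (TGACNNNGC) stood in 6 of the 27 promoters found for the list (22.2%). It stood in 15.4% of the promoters of tested genes.

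Of 19 phenol-conjugating enzymes and aldehyde dehydrogenases 1 rose (median 0.26), ALDH1A3, which makes retinoic acid from retinal and went from 227, 273 and 234 TPM to 381, 387 and 422 TPM (0.70 ± 0.08). Metallothioneins and iron genes held 3 risen members of 16. MT2A, the most abundant metallothionein measured, read 1229, 915 and 1338 TPM in controls and 1659, 1870 and 1845 TPM with HTyr (0.64 ± 0.17, adjusted p = 0.00879), MT1E rose by 0.61 ± 0.11 and MT1F by 0.78 ± 0.23. The call of MT2A was lost without CTR 2 (0.48), that of MT1E without CTR 2 (0.52) or HTyr 3 (0.57), and that of MT1F without CTR 3 (0.60, adjusted p = 0.0705), HTyr 1 (0.71, adjusted p = 0.0511) or HTyr 3 (0.68, adjusted p = 0.0614). Quantile normalization and removal of the GC and length trend ended the calls of MT2A and MT1E as well. Leaving out CTR 2 or HTyr 3 left 1 called member in that list.

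Genes of ERK feedback and AP-1 fell in 14 of 48 members and 1 rose (median -0.17). ERK, the kinase at the end of the RAS pathway, raises phosphatases that shut it off and AP-1 factors that carry its signal. DUSP5, a nuclear ERK phosphatase, read 642, 528 and 583 TPM in controls and 134, 123 and 103 TPM with HTyr, a change of -2.28 ± 0.09 (adjusted p = 3.3e-09). EPHA2, a receptor tyrosine kinase under ERK control, went from 202 to 210.0 TPM to 78.7 to 93.2 TPM (-1.27 ± 0.06), JUN from 21.0 to 24.4 TPM to 8.62 to 10.95 TPM (-1.21 ± 0.10), and DUSP1 fell by 1.27 ± 0.10.

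The NF-kB and TNF list had 13 members that fell of 46 and none that rose (median -0.31). PLAU, the urokinase protease, went from 228 to 252 TPM to 103 to 112 TPM (-1.15 ± 0.09). BIRC3, a direct NF-kB target that restrains death signals, fell by 0.77 ± 0.15 and RELB, a subunit of NF-kB, by 0.67 ± 0.15, a call that was lost without HTyr 1 (-0.52). Several others of the 13, including LAMB3, F3 and HBEGF, also answer to TGF-beta, YAP or ERK.

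The study followed mitochondria, and the transcripts behind them shifted by small amounts. Nuclear genes of complex I had a median of 0.26 with 2 of 37 risen, those of complex II 0.17 with none of 4, complex III 0.07 with 1 of 9, complex IV 0.18 with none of 13 and ATP synthase 0.29 with 1 of 18, and no member of these lists fell. The members that rose were NDUFA11 (0.70 ± 0.08) and NDUFB10 (0.59 ± 0.11) of complex I, UQCRQ (0.86 ± 0.21) of complex III and ATP5MC3 (0.69 ± 0.09), a c-ring subunit of ATP synthase. NDUFB10 stayed close to the fold threshold, and its call was lost without CTR 1 (0.55), CTR 3 (0.56), HTyr 2 (0.53) or HTyr 3 (0.58), with quantile normalization (0.56) and with the GC and length trend removed (0.50), while quantile normalization also ended the call of ATP5MC3 (0.58). NDUFA11 read 147, 145 and 154 TPM in controls and 212, 281 and 236 TPM with HTyr, without overlap. Mitochondrial ribosomal protein genes rose in 7 of 77 (median 0.24), with MRPL23 the largest at 1.08 ± 0.11, import genes in 2 of 32 with 1 falling (0.20) and TCA cycle genes in 3 of 34 (0.14). These shares are at or near the 7.8% of all genes that rose, while the medians lie above that of all genes. Leaving out CTR 2 or HTyr 2 left 1 risen TCA cycle gene, and leaving out HTyr 1 brought complex I to 4.

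**Figure D3:**
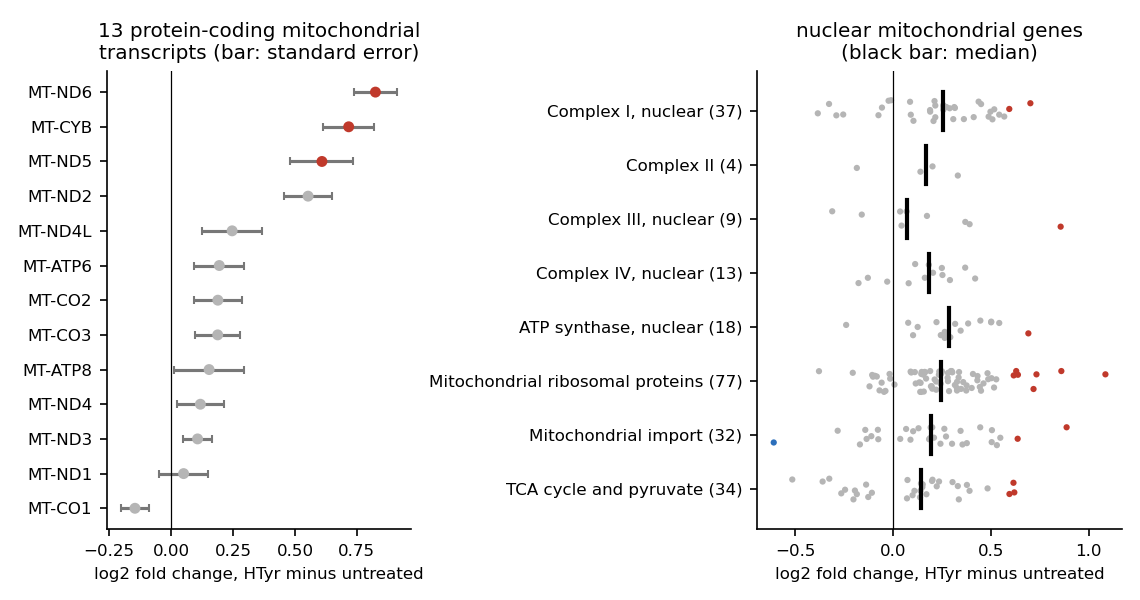
Left, log2 fold change of HTyr over untreated cells with its standard error for the 13 protein-coding transcripts of the mitochondrial genome. Right, the same for members of 8 lists of nuclear genes (points; black bars are medians; red rose, blue fell, grey not called), whose medians run from 0.07 for complex III to 0.29 for ATP synthase.

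The mitochondrial genome is transcribed as long precursors that are cut into single mRNAs. Of the 13 mRNAs 3 rose and none fell, and the median was 0.19. MT-ND6, the single protein gene of the light strand, read 485, 467 and 502 TPM in controls and 886, 808 and 886 TPM with HTyr (0.82 ± 0.09, adjusted p = 9.17e-06). MT-CYB, cytochrome b, went from 3399, 4252 and 3863 TPM to 6021, 6244 and 6597 TPM (0.72 ± 0.10). MT-ND5 rose from 2012, 2638 and 2242 TPM to 3449.5, 3334 and 3671 TPM (0.61 ± 0.13), a call that was lost without CTR 1 (0.52) or HTyr 3 (0.57) and with the GC and length trend removed (0.53). These 3 genes are neighbours on the mitochondrial genome. The other 10 mRNAs were not called, with MT-ND2 at 0.55 ± 0.10 and MT-CO1, the catalytic subunit of cytochrome oxidase, lowest at -0.15 ± 0.06. The large ribosomal RNA MT-RNR2 fell from 13914 to 14723 TPM to 6745 to 7321 TPM (-1.04 ± 0.07, adjusted p = 1.58e-07), and the small one, MT-RNR1, was at -0.32 ± 0.08. Ribosomal RNA carries at most a short tail and libraries were made by poly(A) capture, and the part of this step in the values was not tested. Mitochondrially encoded genes as a whole held 15.6%, 18.7% and 16.5% of TPM in controls and 17.6%, 17.2% and 19.0% with HTyr (difference 1.03 percentage points, two-sided p = 0.4 in an exact permutation test that can give no p below 0.1), so the groups overlapped.

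Of 27 regulators of mitochondrial biogenesis 3 fell, none rose, and the median was -0.11. These 3 are 11.1% of the list, near the 8.45% of all genes that fell, and their number ran from 1 to 5 over the alternatives. PPARGC1A, the gene of the coactivator PGC-1α, did not pass the filter on low values and was not tested. The study measured PGC-1α, FOXJ3, TFAM, MFN1, MFN2 and MFF as proteins by Western blot, whereas the values here are RNA. PPARG, the nuclear receptor that the study followed, read 35.1, 36.1 and 40.01 TPM in controls and 22.5, 22.7 and 25.7 TPM with HTyr. It fell by 0.64 ± 0.09 (adjusted p = 9.92e-05) with no overlap, a value that stayed close to the fold threshold and went just under it without CTR 3 (-0.58) and with the GC and length trend removed (-0.56). PPARA, its relative that drives fatty acid oxidation, fell by 0.79 ± 0.20 and MEF2D by 0.82 ± 0.07, and the call of PPARA was lost with that trend removed (-0.58). FOXJ3, a forkhead factor upstream of MEF2 genes, went from 31.8 to 32.7 TPM to 21.4 to 23.7 TPM (-0.48 ± 0.06, adjusted p = 2.9e-05), without overlap but under the fold threshold. TFAM, which packages and transcribes mitochondrial DNA, read 27.0, 25.6 and 30.4 TPM in controls and 30.4, 31.4 and 40.5 TPM with HTyr (0.29 ± 0.10, adjusted p = 0.0348), and its groups met at 30.4 TPM.

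Among genes of mitochondrial dynamics 3 of 21 rose (14.3%) and 2 fell (9.52%), beside 7.8% and 8.45% of all genes. The fusion genes MFN1 and MFN2 were at -0.05 ± 0.07 and -0.08 ± 0.07 with overlapping libraries. MFF, an adaptor for fission, went from 58.5, 59.4 and 63.1 TPM to 49.0, 49.0 and 52.7 TPM (-0.26 ± 0.05, adjusted p = 0.00175) and was not called. FIS1, another fission adaptor, rose from 51.2, 57.3 and 51.6 TPM to 76.2, 90.1 and 88.0 TPM (0.66 ± 0.08), a call that was lost with the GC and length trend removed (0.56). GDAP1, a fission factor of the outer membrane, rose by 0.89 ± 0.12. PPAR targets and fatty acid oxidation genes included 4 risen of 30 (13.3%) and 3 fallen (10.0%). The risen were led by the lipid carrier FABP5 at 1.00 ± 0.07 and by CPT2, of the carnitine shuttle, at 0.86 ± 0.12. Among the fallen was PLIN4, a lipid droplet protein, at -1.34 ± 0.21.

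Glycolysis and hypoxia genes rose in 7 of 39 and fell in 3 (median 0.02). GAPDH, of lower glycolysis, read 2103, 1935 and 2073 TPM in controls and 3149, 3428 and 3446 TPM with HTyr (0.71 ± 0.06, adjusted p = 1.71e-06), and TPI1 rose by 0.73 ± 0.05. HK2, the inducible hexokinase, went the other way, from 34.95 to 37.9 TPM to 17.3 to 18.5 TPM (-1.004 ± 0.06). ARRDC4, an arrestin that limits glucose uptake, had the largest change of the list, from 0.60, 0.98 and 1.23 TPM to 6.40, 5.09 and 5.25 TPM (2.10 ± 0.21). In cholesterol synthesis and uptake, FDPS rose by 0.89 ± 0.06 and EBP by 0.63 ± 0.08, the latter at the fold threshold without CTR 2 or HTyr 3 (both 0.58) and not called there nor with the GC and length trend removed (0.51), and the median of the 28 genes was 0.05.

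MYC, the growth factor-driven oncogene, read 365, 363 and 363 TPM in controls and 210, 216 and 222 TPM with HTyr, a change of -0.75 ± 0.06 (adjusted p = 7.65e-07) with very little spread in either group. Among 57 genes of the MYC network and ribosome biogenesis 4 fell, MYC included, and 1 rose, which is below the share of all genes called. None of the 79 cytosolic ribosomal protein genes was called, yet their median was -0.21, and together they held 29.4%, 27.0% and 28.3% of TPM in controls and 23.4%, 24.7% and 25.1% with HTyr (difference -3.88 percentage points, two-sided p = 0.1 in the exact permutation test, its lowest possible value). Host genes of small nucleolar RNAs, whose transcripts carry the same type of 5′ terminal tract, fell in 5 of 21, with GAS5 going from 2623, 2057 and 2424 TPM to 1381, 1211 and 1343 TPM (-0.85 ± 0.12) and SNHG32 lower by 1.09 ± 0.08 on the log2 scale.

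For the lists of this paragraph the shares of all genes to set beside are 7.8% risen and 8.45% fallen. p53 target genes rose in 4 (10.5%) and fell in 5 (13.2%) of 38 (median 0.02). TP53I3, an oxidoreductase, read 9.12, 9.45 and 8.65 TPM in controls and 18.2, 24.7 and 22.5 TPM with HTyr (1.21 ± 0.10, adjusted p = 1.59e-06). The death receptor FAS rose by 0.98 ± 0.15 and BAX, which opens the outer mitochondrial membrane, by 0.68 ± 0.11, while TNFRSF10B, a receptor of the ligand TRAIL, fell by 0.77 ± 0.06. The call of BAX was lost without CTR 1 (0.56) and, with the GC and length trend removed. In the list of BCL2 proteins, death receptors and caspases 6 of 37 rose (16.2%) and 3 fell (8.11%), and without CTR 1 the number that rose was 3. Proteasome subunits had a median of 0.34 with 3 of 35 risen (8.57%), none without HTyr 3 and 6 without HTyr 1. Cytosolic heat shock genes had 1 risen member of 26 (3.85%), HSPA1B at 0.71 ± 0.13, and 3 without HTyr 1.

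The largest fitted changes belong to short non-coding RNAs and need care. Poly(A) libraries hold such RNAs only in traces, and TPM divides by their small length. Of 138 measured, 22 rose and 2 fell, yet these 24 entries held 11 distinct sets of values, because 11 U2 and 4 5.8S ribosomal RNA entries carry identical numbers, and 15 of the 24 had overlapping libraries. The 5.8S entries together made up 0.135%, 0.0253% and 0.0993% of TPM in controls and 2.70%, 2.20% and 0.151% with HTyr, so that HTyr 1 and HTyr 2 were high and HTyr 3 was near the controls. SNORD97 is listed at 0 in all controls and at 52.5, 64.3 and 11.7 TPM with HTyr. Of the 22 that rose, 2 stayed called without HTyr 1, 2 without HTyr 2 and 20 without HTyr 3. All short RNA together reached 4.22% and 3.10% of TPM in HTyr 1 and HTyr 2 and 0.618% in HTyr 3, and the part of this share in other genes' TPM was measured by leaving these RNAs out, which changed neither count of called genes against controls by more than 1.5 times.

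HTyr and the OPWP extracts were compared with each other directly, in a contrast that leaves out the controls. The extracts hold other phenols beside HTyr and were given at the same mass, so the amount of HTyr differed. Bracketed codes in the titles of the TE and SE samples point to the other region than the titles' words, and since both enter only as part of the mean of the 3 extracts, an exchange would not alter these values. Against that mean 80 genes were higher with HTyr, 0.537% of those tested, and 88 lower, 0.591%, together 168 or 1.13%. The split depended on scaling. The median difference of all genes was -0.11, and with median-ratio scaling, which moved it to -0.0043, 124 genes were higher and 20 lower, and with quantile normalization 111 and 27. Without HTyr 1 the counts were 36 and 165, without HTyr 2 they were 39 and 40, and without HTyr 3 they were 89 and 139. Of the 168 genes, 82 had HTyr libraries wholly outside the range of the 9 extract libraries, whereas 1104 of all genes (7.41%) did. Of the 2421 genes called against controls, 1726 (71.3%) had a 95% interval of the difference from the mean of the extracts that lay within 1.5-fold either way, and so did 74.0% of all tested genes. Such intervals rest on the spread within groups and leave out differences between the extracts, so they do not describe any single extract.

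Among the genes that fell with HTyr, 17 were called higher than with the extracts and 19 were called lower. Several of the first kind follow. KRT7 read 73.2, 68.8 and 69.6 TPM with HTyr, and in the extract libraries from 14.7 to 42.9 TPM with a median of 35.3 TPM. HTyr was thus above all 9 and, at 139 to 156 TPM, the controls were higher still, and the difference from the extracts was 1.28 ± 0.10 (adjusted p = 2.59e-05). KRT80 (0.76 ± 0.07), DUSP5 (0.67 ± 0.08), ETS1 (0.70 ± 0.09), MGLL (0.73 ± 0.09), DKK1 (0.90 ± 0.09), LAMB3 (0.65 ± 0.08) and CPA4 (1.10 ± 0.11) also stood below the controls and above the mean of the extracts. That order is one of group means and need not hold for each extract library. FOSL1, an AP-1 factor, was not called against the controls, at 93.7, 110 and 106 TPM without and 99.9, 106 and 91.4 TPM with HTyr, but lay above the extracts at 49.3 to 69.3 TPM (0.76 ± 0.09, adjusted p = 0.000486). DDIT3 stood 0.64 ± 0.09 above the mean of the extracts, although its 3 libraries lay inside their wide range of 35.8 to 193 TPM, and the call was lost without HTyr 1 (0.58).

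Some antioxidant genes were lower with HTyr than with the extracts. NQO1, at 700 to 766 TPM with HTyr, stood at 803 to 1425 TPM with the extracts, with a median of 1384 TPM, so that no library of the groups overlapped (-0.66 ± 0.04, adjusted p = 2.31e-06). The call was lost with median-ratio scaling (-0.55) and with the GC and length trend removed (-0.57), and the direction was kept in both. HMOX1 was at -0.47 ± 0.07 and was not called. Of the 37 genes of the NFE2L2 list, none was higher and 5 were lower with HTyr than with the extracts. ABCC2, an exporter of conjugates, was lower by 0.69 ± 0.09, at 28.9 to 37.4 TPM against 39.1 to 70.6 TPM, a call that was lost with median-ratio scaling (-0.58), quantile normalization (-0.58) and the GC and length trend removed (-0.56). HSPA8, the constitutive HSC70 chaperone, was at -0.63 ± 0.06, and this call too was lost with median-ratio scaling (-0.52) and with that trend removed (-0.55).

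CYP1A1 showed no difference from the mean of the extracts that could be called (0.38, 95% interval 0.08 to 0.68). It stood at 6.06 to 8.20 TPM with HTyr, and the extract libraries lay both below and above, from 1.38 to 23.5 TPM. AXIN2, a feedback inhibitor of WNT signalling, was 4.13, 4.44 and 4.73 TPM with HTyr and 6.64 to 12.4 TPM with the extracts (-0.88 ± 0.09). MT2A was higher with HTyr than in every extract library (0.70 ± 0.14), and ALDH1A3 was higher than their mean by 0.74 ± 0.07, although its values lay within their range. RRM2 and CCNB1 were not called against the extracts, with 95% intervals of -0.20 to 0.05 and -0.08 to 0.12. The E2F and replication list as a whole had a median of -0.31 against the extracts, where all genes had -0.11. Of its 73 members 2 were called lower and 0 higher, beside 0.591% of all genes called lower. The median of the mitosis list was -0.07, with 0 members called.

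**Figure D4:**
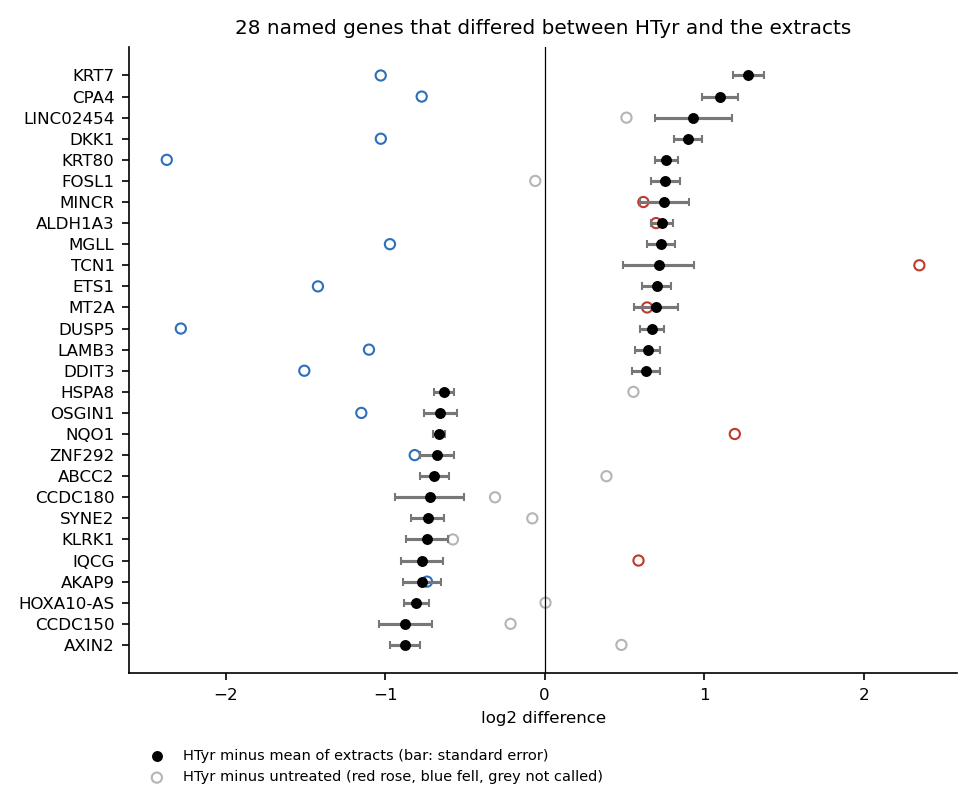
Filled points give the log2 difference between HTyr and the mean of the 3 extracts with its standard error for 28 named genes called in that contrast, and open circles give HTyr minus untreated cells for the same genes (red rose, blue fell, grey not called). KRT7 at the top stood at 1.28 against the extracts and -1.03 against the controls, and AXIN2 at the bottom stood at -0.88 against the extracts.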

How the data were processed

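Total RNA of HCT116 cells was sequenced by the authors from stranded poly(A) libraries, aligned to GRCh38 with STAR and quantified with RSEM. STAR, RSEM and GRCh38 also stand in the submitters' processing notes, without versions. Deposited were TPM values, made by the authors for each library, with no scaling between libraries. Column names carry the sample labels, 0 columns of values were left unused, and no 2 libraries held identical values. Estimated counts were not used here, so the depth of each library is unknown here and no count model was fitted.

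Values were analysed on the log2 scale of the deposited TPM with a pseudocount of 0.5, in 1 limma 3.58.1 model (R 4.3.3) of all 5 groups with a mean-variance trend (10 residual and 3.42 prior degrees of freedom). HTyr was set against untreated cells and against the mean of AE, TE and SE. Shares of TPM were compared with exact permutation tests in scipy 1.17.1 (Python 3.11.15). The fit was checked on simulated data.

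The comparison, its members and the gene lists were chosen with earlier results of these data known, so list counts are descriptions. Genes were named by a rule: those the study follows or names, the 15 largest changes in each direction without overlap and with a mean of at least 5 TPM, from each list its defining members, the 3 smallest adjusted p and up to 2 called members against the median, the 8 largest differences from the extracts in each direction, the 5 of these also called against controls, and the 10 most abundant called genes. Other genes named were picked from the lists after their values were seen, and some genes that the rule takes in are counted only or not reported here. Promoters are those of RefSeq on GRCh38.p14, from 250 bases before to 50 after the start, and motifs were searched on both strands. The lists were written by hand from textbook knowledge, so a motif share describes the list and not the effect of HTyr. Same-numbered control and HTyr libraries deviated from their group means with r of -0.0292 to 0.0137, so the numbers were not taken as pairs. Between libraries of other numbers in different groups r ran from -0.2251 to 0.2802, the latter for HTyr 3 with AE 1. HTyr 3 also had an r of 0.2627 with TE 3 and 0.2561 with SE 1. By rank correlation HTyr 3 was closer to a library of another group (0.9807) than to HTyr 1 (0.9718) or HTyr 2 (0.974). The same held for AE 1 (0.9801 against at most 0.9777 in its group) and TE 3 (0.9807 against at most 0.9749). What these libraries share was not tested. Alternatives were pseudocounts of 0.1 and 1, no filter, quantile normalization, median-ratio scaling, genes of at least 5 TPM on average, only the groups compared, leaving out mitochondrially encoded genes, robust variance moderation, a replicate block, array weights, no trend, limma's treat, other fold thresholds and each library left out. Correction for GC content and transcript length, and leaving out short non-coding RNAs, were added after seeing the data.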

Additional observations from a re-analysis of the deposited data

Results flagged for a closer look

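Differences between HTyr and the mean of the 3 extracts (log2 scale, limma, adjusted p under 0.05), each a test of 1 treatment against the others that uses no control library, mark the following genes. KRT7 (1.28), CPA4 (1.10), DKK1 (0.90), KRT80 (0.76), MGLL (0.73), ETS1 (0.70), DUSP5 (0.67), LAMB3 (0.65) and DDIT3 (0.64) were higher with HTyr than with the extracts and had fallen against untreated cells. FOSL1 (0.76) and LINC02454 (0.93) were higher than with the extracts and not called against untreated cells, and MINCR (0.75), TCN1 (0.72), ALDH1A3 (0.74) and MT2A (0.70) were higher in both comparisons. LAMB3 lost its call without HTyr 2 (0.57), DDIT3 without HTyr 1 (0.58), and LINC02454 with no filter (adjusted p = 0.0536) and without HTyr 1 (0.79), HTyr 2 (1.06) or HTyr 3 (0.95), each with an adjusted p of 0.0544 to 0.105. Against untreated cells MINCR was not called without CTR 3 (adjusted p = 0.0522) and MT2A not without CTR 2, nor were these 2, AKAP9, IQCG and ZNF292 with the correction for GC content and transcript length.

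Lower with HTyr than with the extracts were AXIN2 (-0.88), CCDC150 (-0.87), HOXA10-AS (-0.80), KLRK1 (-0.74), SYNE2 (-0.73), CCDC180 (-0.72), ABCC2 (-0.69) and HSPA8 (-0.63), which were not called against untreated cells, AKAP9 (-0.77), ZNF292 (-0.68) and OSGIN1 (-0.65), which had fallen, and IQCG (-0.77) and NQO1 (-0.66), which had risen. Once values were corrected for GC content and transcript length, AKAP9 (-0.56), SYNE2 (-0.56), ZNF292 (-0.45), KLRK1 (-0.58), CCDC180 (-0.61), ABCC2 (-0.56), HSPA8 (-0.55) and NQO1 (-0.57) lost their calls. Median-ratio scaling ended the calls of OSGIN1 (-0.55), ZNF292 (-0.57), CCDC180 (-0.62), ABCC2 (-0.58), HSPA8 (-0.52) and NQO1 (-0.55), and quantile normalization those of OSGIN1 (-0.54), ZNF292 (-0.58), CCDC180 (-0.63) and ABCC2 (-0.58). KLRK1 was not called without HTyr 2 (-0.58), and CCDC180 lost its call in 13 of 26 alternatives besides treat, among them without any 1 HTyr library (-0.76 to -0.68), AE 2 or AE 3, or TE 1 or TE 3. The rise of IQCG against untreated cells was not called without CTR 1 (0.58), CTR 3 (0.50) or HTyr 3 (0.48). It was also not called with a pseudocount of 1 (0.53) or with the GC and length trend removed (0.57).

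SNORD97 (4.90) and SNORA18 (4.84) are small nucleolar RNAs whose TPM were at 0 in most extract libraries, as medians of 0 show, and differed between HTyr libraries, from 11.7 to 64.3 TPM for SNORD97 and from 14.4 to 84.3 TPM for SNORA18. TCN1, a cobalamin carrier, read 3.48, 4.99 and 7.96 TPM with HTyr and 1.37 to 4.96 TPM with the extracts. Its adjusted p was 0.0454, the call was lost in 15 of 26 alternatives besides treat, and without HTyr 3 the difference was 0.43 with an adjusted p of 0.229. SNORD97 was not called without HTyr 1 (4.59) or HTyr 2 (4.45), nor SNORA18 without HTyr 2 (4.45) or HTyr 3 (4.40). What lies behind these differences was not tested.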

How the results depend on the processing

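TPM keep no depth, 3 libraries stand in each group, and changes near 0.5 TPM are understated, which limits the reading of genes at low levels. HTyr against untreated cells gave 2421 called genes, and 346 (186 rose, 160 fell) with limma's treat at the same fold, 5863 (2664 and 3199) with no fold threshold, 588 (300 and 288) at a log2 change over 1, and 835 that fell among genes with a mean of at least 5 TPM. The other alternatives moved neither count by more than 1.5 times, and leaving out 1 library gave 2166 to 2467 calls (992 to 1201 rose, 1064 to 1315 fell). Against the extracts, treat called 0 genes (0 higher, 0 lower), where the test without it called 168 and 4618 had an unadjusted p under 0.05. No fold threshold gave 2296 (284 higher, 2012 lower), a log2 change over 1 gave 33 (24 and 9), and a mean of at least 5 TPM gave 99 (48 and 51). Lower genes numbered 53 with a pseudocount of 1, 58 without short non-coding RNAs, 20 with median-ratio scaling (124 higher), 27 with quantile normalization (111 higher) and 16 of 100 with the GC and length trend removed. Leaving out 1 library gave 79 to 228 calls (36 to 91 higher, 40 to 165 lower). The replicate block gave 1154 risen and 1244 fallen genes against untreated cells and 158 calls against the extracts (75 higher, 83 lower), and of 30 same-numbered pairs over all groups 3 had a correlation of deviations over 0.1. List medians near 0 changed sign for fatty acid synthesis genes in 8 of 20 alternatives (-0.0701 to 0.0446), glycolysis and hypoxia genes without HTyr 1 (-0.0033) or HTyr 3 (-0.0102), p53 targets without CTR 1 (-0.0021), cholesterol genes without CTR 1 (range over libraries left out -0.0356 to 0.058), WNT genes with the GC and length trend removed (0.0034), interferon genes at a mean of at least 5 TPM (0.0071), and autophagy genes with median-ratio scaling (0.0020) and without short non-coding RNAs (0.0036). The cause was not tested.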

Other observations

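Lists not described above held the following called genes, beside 16.2% of all genes called. Interferon and MHC class I genes rose in 4 and fell in 2 of 38 (15.8%), with OAS3, a sensor of double-stranded RNA, going from 3.45, 4.89 and 4.98 TPM to 10.9, 9.52 and 11.2 TPM (1.17 ± 0.12), and VSIR, an immune checkpoint ligand, from 40.8, 33.5 and 43.8 TPM to 9.27, 10.6 and 9.87 TPM (-1.93 ± 0.17). IFITM3, which blocks viral entry, fell by 0.69 ± 0.05. Without CTR 2 the number that fell was 4. Autophagy and lysosome genes rose in 6 and fell in 5 of 45 (24.4%). Those that rose included GLA (0.90 ± 0.10), a lysosomal enzyme that cleaves glycolipids, and those that fell included ATG12 (-0.96 ± 0.14), of the autophagosome conjugation system, and NBR1 (-0.59 ± 0.06), an autophagy receptor whose call was lost in 8 of the alternatives besides treat, among them without CTR 3 (-0.58), HTyr 1 (-0.58) or HTyr 2 (-0.57).

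Genes of intestinal identity and secreted defence gave 1 risen and 2 fallen members of 12. LCN2, an iron-binding defence protein, read 59.2, 56.0 and 52.6 TPM in controls and 15.8, 17.7 and 16.98 TPM with HTyr (-1.70 ± 0.10), KLF4, a differentiation factor, fell by 1.15 ± 0.08, and CA2, a carbonic anhydrase, rose by 0.76 ± 0.10. Among 22 WNT targets and regulators DKK1, a secreted WNT inhibitor, fell by 1.03 ± 0.11, and MYC is the other member that fell. Fatty acid synthesis genes held 1 risen member of 26, ACSL5 (0.80 ± 0.06), and 1 fallen, LPIN1 (-0.94 ± 0.15). SAT1, which breaks down polyamines and is among the most abundant called genes, went from 2326, 2092 and 1944 TPM to 1299, 1039.6 and 1154 TPM (-0.87 ± 0.09, adjusted p = 6.17e-06).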
